A study of Mus musculus with 24 samples.

Results

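The interleukin-1 (IL-1) family was followed through 10 genes in mouse colon and in colorectal tumours: the cytokines Il1a, Il1b, Il18 and Il33, the inhibitors Il1rn and Il18bp, the decoy receptor Il1r2, and the receptor chains Il1r1, Il1rap and Il1rl1. They were chosen by name, with earlier results of these data known, as the rows of the RNA sequencing tables whose gene identifier maps to these symbols. All 10 were found among the 55487 genes of the tables. The study compared wild-type (WT) C57BL/6 mice with C57BL/6 mice whose intestinal epithelium lacks Axin1 (KO). Axin1 holds together the protein complex that targets beta-catenin for breakdown, so it restrains Wnt signalling. The 8 groups of 3 libraries each, described as biological replicates, were colon of untreated WT mice, colon of untreated KO mice, WT and KO colon at day 7 of a dextran sulfate sodium (DSS) experiment, WT and KO colon at day 13 of that experiment, and colorectal tumours from both genotypes given azoxymethane (AOM) and DSS. DSS injures the colonic epithelium and causes colitis, and AOM is a carcinogen. No age or sex and no driver of the deletion are given in the labels. The deletion is limited to intestinal epithelium, whereas RNA came from whole pieces of colon or tumour, so immune, stromal and muscle cells that still carry Axin1 were measured together with the epithelium.

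IL-1 alpha and IL-1 beta bind the same receptor, made of IL1R1 and the accessory chain IL1RAP, and signal through MYD88 to NF-kappaB. IL-1 beta and IL-18 are made as precursors that caspase-1 cleaves in inflammasomes, whereas IL-1 alpha and IL-33 are held in the nucleus of many cells and act as alarm signals when cells are damaged. The antagonist IL1RN occupies IL1R1 without signalling, IL1R2 captures IL-1 without signalling, IL-18BP neutralises IL-18, and IL1RL1 (ST2) with IL1RAP is the receptor for IL-33. In the colon IL-18 comes largely from epithelium and IL-33 largely from stromal cells, while IL-1 beta comes mainly from neutrophils, monocytes and macrophages.

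Several members sit side by side in the genome (GRCm38, GENCODE M21). Il1a (chr2:129299610-129309972) and Il1b (chr2:129364570-129371139) lie on the minus strand with 54.6 kb between them. Il1r2 (chr1:40074079-40125231), Il1r1 (chr1:40225080-40317257) and Il1rl1 (chr1:40429570-40465415) follow each other on the plus strand with gaps of 99.8 kb and 112.3 kb. Il1rn (chr2:24336853-24351494), Il33 (chr19:29925114-29960718), Il18 (chr9:50554827-50581840), Il1rap (chr16:26581704-26730117) and Il18bp (chr7:102014885-102018690, minus strand) stand apart. The 250 bases before the transcription start are shown for Il1a, Il1b and the upstream start of Il1rl1, because these 3 genes passed the comparison of KO with WT colon at day 13. The bases are from RefSeq (GRCm38.p6), written 5′ to 3′ on the strand of the gene, with motif matches in capitals.
Il1a promoter, chr2:129309973-129310222, minus strand: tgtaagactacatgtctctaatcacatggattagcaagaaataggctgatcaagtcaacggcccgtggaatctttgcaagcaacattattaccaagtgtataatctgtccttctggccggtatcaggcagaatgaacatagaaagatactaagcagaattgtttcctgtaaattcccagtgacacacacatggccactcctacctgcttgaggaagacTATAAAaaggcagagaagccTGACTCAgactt
Il1b promoter, chr2:129371140-129371389, minus strand: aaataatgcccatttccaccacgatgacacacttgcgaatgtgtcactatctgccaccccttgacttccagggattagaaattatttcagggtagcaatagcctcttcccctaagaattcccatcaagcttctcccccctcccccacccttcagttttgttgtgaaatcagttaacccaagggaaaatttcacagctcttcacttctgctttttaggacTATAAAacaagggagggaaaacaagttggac
Il1rl1 promoter, chr1:40429320-40429569, plus strand: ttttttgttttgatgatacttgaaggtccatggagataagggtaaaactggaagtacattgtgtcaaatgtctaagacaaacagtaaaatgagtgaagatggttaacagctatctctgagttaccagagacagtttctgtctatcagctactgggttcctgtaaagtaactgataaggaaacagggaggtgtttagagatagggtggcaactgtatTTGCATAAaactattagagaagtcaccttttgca

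The capitals mark TATAAA at -32 to -27 and the AP-1 motif TGANTCA at -12 to -6 in Il1a, TATAAA at -31 to -26 in Il1b, and the C/EBP motif TTGCNNAA at -34 to -27 in Il1rl1, where -1 is the base before the start. Over 32851 promoters of the same length, read on both strands, TATAAA was found in 12.4%, TGANTCA in 6.75%, TTGCNNAA in 9.56%, the NF-kappaB motif in 7.25% and the TCF/LEF motif CTTTGAT in 3.21%. None of the marked matches overlaps another, and TGANTCA reads the same on both strands. All 10 members had an entry, with 15 windows in all. Among the other 12 windows, TATAAA was in both windows of Il33 and in that of Il18, the C/EBP motif in 1 window each of Il33, Il1r1 and Il18bp, the AP-1 motif in 1 window of Il1rn, and the NF-kappaB motif in 1 window of Il1r1. The letters CTTTGAT, a motif bound by the partners of beta-catenin, were in 0 of the 15 windows. The tables give a single value per gene, so the starts of Il1rl1 and its membrane and soluble forms were not analysed separately.

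The libraries held between 15.65 M and 28.07 M expected counts (median 23.64 M). Axin1 itself lay at 47.4 to 58.8 CPM (counts relative to the total of the library) in the 12 WT libraries and at 13.5 to 19.7 CPM in the 12 KO libraries, with no overlap. Markers of colonic epithelium were present in every group, with summed levels of 4088 to 36212 CPM over 10 genes. A few libraries stood apart. Untreated KO replicate 3 held 12058 CPM of Car1 and 10726 CPM of Muc2 and the highest sum of colonic epithelium markers. WT day 7 replicate 2 held the most smooth muscle RNA, at 11886 CPM over 6 markers. Markers of squamous epithelium, which lines the anal canal, summed to 5431 CPM in WT day 13 replicate 3, 1215 CPM in KO day 13 replicate 1 and 707 CPM in KO tumour replicate 2, against 2.43 to 4.03 CPM in untreated WT colon. By the Y-linked gene Ddx3y, all 3 WT day 13 libraries were male (31.0 to 38.1 CPM) and all 3 KO day 13 libraries were not (0 to 0.0485 CPM), while Xist showed the reverse, so sex and genotype cannot be told apart at day 13. All 3 WT day 7 libraries had Xist and all 3 untreated KO libraries had Ddx3y, and the other groups were mixed. Between untreated and day 13 KO colon, sex and time thus cannot be told apart. The test of the difference between genotypes in the change to day 13 carries the same limit.

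In WT colon several members changed between untreated tissue and day 7 or day 13 of the DSS experiment. Il1b, Il1rl1 and Il1r2 rose from levels near the limit of counting at day 7 and day 13, Il1a rose at day 13, and Il18bp rose at both times, whereas in KO colon 0 of the 10 members passed the test at either time, beside 12.6% of all genes tested at day 7 and 0.0276% at day 13, a share at which 0 of 10 says nothing about the members. With edgeR the difference between the genotypes in these changes did not itself pass for any member. At day 13, Il1b, Il1rl1 and Il1a passed as lower in KO than in WT colon, a comparison in which sex and genotype cannot be told apart. None of these calls held with Y-linked expression as a covariate or with only the groups compared in the fit. They were also lost without the 2 libraries rich in squamous markers. In tumours Il1b, Il1rl1 and Il1a were high in both genotypes and Il18 was low in both. Between KO and WT tumours 0 of 10 members passed, beside 0.0% of all genes. The antagonist Il1rn and the shared chain Il1rap passed in none of the 13 comparisons made with edgeR's quasi-likelihood test.

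Per unit of transcript length (transcript abundance scaled to length and to the library, TPM, mean ± SD, n = 3), the order of levels in untreated WT colon was led by Il18 at 195 ± 19.4 TPM and Il1rn at 100.3 ± 32.3 TPM. The libraries of these 2 genes did not overlap. Il1r1 (6.21 ± 0.787 TPM), Il33 (5.24 ± 2.03 TPM), Il1rap (4.56 ± 0.826 TPM) and Il18bp (3.50 ± 0.382 TPM) followed, and neighbours in this order overlapped except Il1rap and Il18bp. Il1b, Il1rl1, Il1a and Il1r2, all below Il18bp, lay at 0.320 to 0.580, 0.270 to 0.340, 0.190 to 0.480 and 0.120 to 0.210 TPM and overlapped each other in that order. In WT tumours the order was headed by Il1rl1 (139.8 ± 85.5 TPM), Il1rn (135 ± 24.7 TPM) and Il1b (132 ± 62.3 TPM), whose ranges overlapped. Il18 followed at 72.0 ± 18.5 TPM and Il1rap was last at 3.64 ± 0.706 TPM. KO tumours had the same 4 genes at the top, with Il1rn at 137 ± 47.4 TPM, Il1rl1 at 132 ± 92.8 TPM, Il1b at 108 ± 22.5 TPM and Il18 at 90.0 ± 4.48 TPM.

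**Figure D1:**
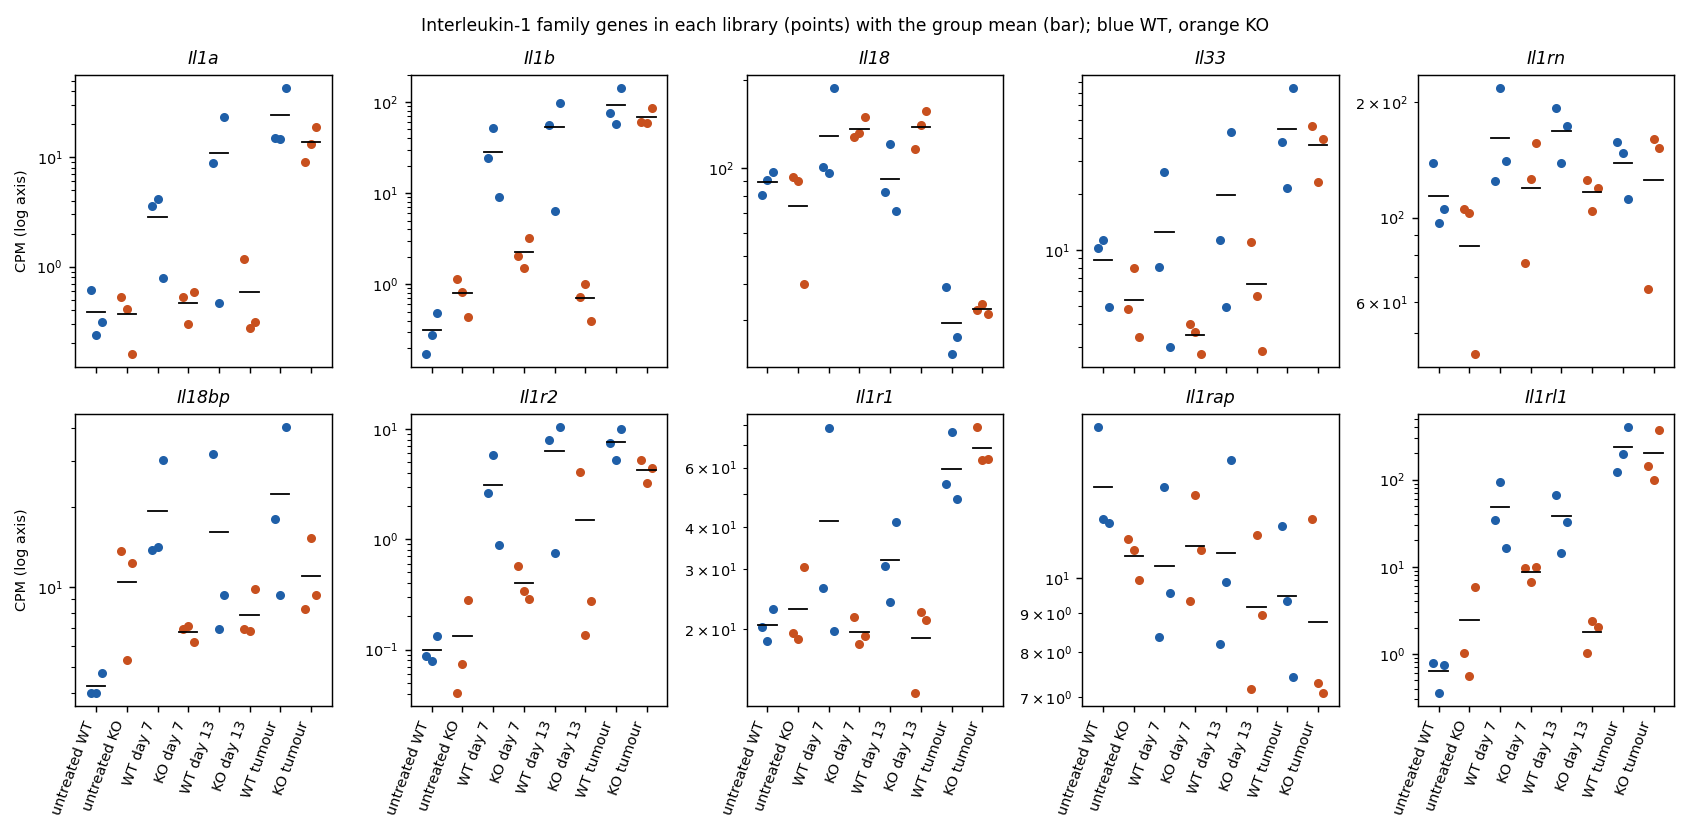
Level of each of the 10 genes in all 24 libraries, in CPM on log axes that differ between panels, with a bar at the group mean (n = 3; WT blue, KO orange). Il1b, Il1r2 and Il1rl1 lie above untreated WT colon in all WT libraries under DSS and, with Il1a, in tumours of both genotypes, Il1a is within the untreated range in WT day 13 replicate 2, Il18 is low in tumours, and Il1rn and Il1rap vary within narrow ranges.

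Il1b encodes IL-1 beta, the form released by activated myeloid cells. Its level in untreated WT colon was 0.173, 0.277 and 0.489 CPM in the 3 libraries, from 4, 7 and 11 counts, and 1.13, 0.823 and 0.441 CPM in untreated KO colon. At day 7 it was 24.02, 52.4 and 9.19 CPM in WT and 2.07, 1.49 and 3.24 CPM in KO colon. Every WT library was thus above every KO library at day 7. Libraries of KO and WT did not overlap for 26.1% of all genes at day 7, 23.8% at day 13 and 17.9% in untreated colon. The same held for 5, 4 and 2 of the 10 members, so a separation of libraries for a single gene says little by itself. At day 13 the WT libraries held 55.8, 6.31 and 98.1 CPM and the KO libraries 0.727, 1.0 and 0.391 CPM. In tumours the levels were 76.0, 57.0 and 143 CPM in WT and 60.9, 59.4 and 86.7 CPM in KO mice. WT day 13 replicate 2 was the lowest WT library at that time but was still above all 3 KO libraries, and the tumours of the 2 genotypes overlapped. In WT colon Il1b rose at day 7 by a log2 fold change of 6.43 ± 0.97 (SE), adjusted p = 0.0015, and at day 13 by 7.37 ± 1.0 (SE), adjusted p = 0.0048, both against untreated WT colon by edgeR's quasi-likelihood test with Benjamini-Hochberg adjustment, which gave every adjusted p here unless DESeq2 is named. In KO colon the change was 1.497 ± 0.83 (SE), adjusted p = 0.27 at day 7, which did not pass, and -0.18 at day 13. Against WT, Il1b in KO colon was lower by 75.2-fold at day 13 (log2 fold change -6.23 ± 0.93 (SE), adjusted p = 0.0083), and at day 7 the fold change of -3.61 ± 0.80 (SE), adjusted p = 0.065 missed the threshold. In the untreated colon it was 1.32 ± 0.99 (SE), adjusted p = 0.81.

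The day 13 call for Il1b did not hold in every setting: its adjusted p was 0.0523 without WT replicate 1, 0.0529 without KO replicate 1, 0.0545 without KO replicate 3, 0.13 without the 2 libraries rich in squamous markers, 0.088 with only the day 13 groups in the fit and 0.14 with Y-linked expression as a covariate, with log2 fold changes of -6.55 to -5.46. Without WT replicate 3 it passed with a smaller log2 fold change, -5.43. The rises of Il1b in WT colon were smaller, and still passed, without WT day 7 replicate 2 (5.66) and without WT day 13 replicate 3 (6.57). At day 7 the comparison passed with DESeq2 (4.3e-04), with all 24 libraries in the fit (0.037), without WT replicate 1 (0.0454) and without WT replicate 3 (0.023).

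Il1a encodes IL-1 alpha, the form that damaged epithelial and stromal cells release. It lay at 0.607, 0.237 and 0.311 CPM in untreated WT colon, 3.59, 4.16 and 0.783 CPM at day 7 and 8.79, 0.460 and 23.2 CPM at day 13. In KO colon it stayed at 0.526, 0.412 and 0.160 CPM in untreated mice, 0.529, 0.298 and 0.580 CPM at day 7 and 1.16, 0.273 and 0.313 CPM at day 13. WT day 13 replicate 2 was as low as the KO libraries. The highest WT library, replicate 3, was the one rich in squamous markers, as was the highest KO library, replicate 1. WT replicate 3 also had the highest neutrophil (559 CPM), monocyte and macrophage (519.7 CPM) and fibroblast (2532 CPM) marker sums of its group. KO replicate 1 had the highest neutrophil sum of its group and the lowest of the other sums named. The part of squamous tissue, or of these other cell types, in the level of Il1a was not tested. Tumours held 15.1, 14.7 and 43.0 CPM in WT and 8.96, 13.3 and 18.9 CPM in KO mice, above every colon library of the KO genotype. Il1a rose in WT colon at day 13 (4.78 ± 1.07 (SE), adjusted p = 0.026) and did not pass at day 7 (2.81 ± 1.02 (SE), adjusted p = 0.073). It was lower in KO than in WT colon at day 13, by 18.6-fold (-4.21 ± 1.03 (SE), adjusted p = 0.044), and at day 7 the difference was -2.55 ± 1.01 (SE), adjusted p = 0.13. The day 13 call was lost on leaving out any single library of the 2 groups other than WT replicate 2, with adjusted p from 0.1 (without WT replicate 1) to 0.2 (without WT replicate 3). The log2 fold change itself was -2.97 without WT replicate 3 and -5.14 without KO replicate 1. The rise in WT colon was lost likewise without WT day 13 replicate 1 (0.073) or replicate 3 (log2 fold change 3.53, adjusted p = 0.074) and without any 1 of the untreated WT libraries (0.099 to 0.11). Exons of Il1a share 11.2% of their bases with Gm14023 on the other strand, and without the strand setting their reads cannot be told apart.

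Il18, the epithelial cytokine of the family, went another way. Untreated WT colon held 80.7, 91.0 and 96.8 CPM and untreated KO colon 93.0, 90.0 and 40.0 CPM. At day 7 the values were 100.4, 96.0 and 189 CPM in WT and 127, 132 and 149 CPM in KO colon, and at day 13 82.5, 121 and 70.9 CPM in WT and 116, 140.2 and 157 CPM in KO colon. The low untreated KO library was replicate 3, and at day 13 WT replicate 2 lay within the KO range. Tumours held only 38.9, 23.0 and 26.2 CPM in WT and 32.6, 34.0 and 31.5 CPM in KO mice, below every colon library of the same genotype. Tumours and untreated colon alone did not overlap for 60.1% of all genes tested in WT and 59.1% in KO mice. Il18 fell in WT tumours by 3.05-fold against untreated WT colon (log2 fold change -1.61 ± 0.30 (SE), adjusted p = 2.5e-04), and in KO tumours by 2.27-fold against untreated KO colon (-1.19 ± 0.30 (SE), adjusted p = 0.0029). Markers of colonic epithelium summed to 6299 to 13987 CPM in WT tumours and 13577 to 14451 CPM in untreated WT colon, and those of smooth muscle to 122 to 229 and 5573 to 8242 CPM. In KO mice the colonic epithelium sums were 4088 to 7861 CPM in tumours and 12863 to 36212 CPM in untreated colon, without overlap. Those of smooth muscle were 157 to 270 and 3468 to 4039 CPM. In whole tissue, fewer cells of a type and less RNA per cell cannot be told apart. In the colon Il18 passed in none of the comparisons, and its change in KO colon was 0.88 at day 7 and 0.90 at day 13 on the log2 scale.

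Il33, the alarm cytokine of stromal cells, lay at 10.3, 11.3 and 4.93 CPM in untreated WT and 4.81, 7.93 and 3.41 CPM in untreated KO colon. At day 7 it was 8.02, 26.2 and 2.98 CPM in WT and 3.99, 3.62 and 2.75 CPM in KO colon, and at day 13 11.2, 4.89 and 43.0 CPM in WT and 11.01, 5.63 and 2.86 CPM in KO colon. Single libraries set the WT means. The highest at day 7, replicate 2, was the one rich in smooth muscle. It also had the highest fibroblast (2835 CPM) and endothelial (197 CPM) marker sums of its group. The highest at day 13, replicate 3, was the one rich in squamous markers. It too had the highest fibroblast (2532 CPM) and endothelial (164 CPM) sums of its group. KO replicate 1, the squamous KO library, was also the highest KO library at day 13. Tumours held 38.0, 21.5 and 74.6 CPM in WT and 46.6, 23.3 and 39.7 CPM in KO mice. They did not overlap with untreated colon of the same genotype, as held for 60.1% of all genes in WT and 59.1% in KO mice. The rise was 2.33 ± 0.76 (SE), adjusted p = 0.017 in WT tumours and 2.76 ± 0.78 (SE), adjusted p = 0.0067 in KO tumours. Without untreated WT replicate 3 or WT tumour replicate 3 the WT rise no longer passed, with adjusted p of 0.069 and 0.087 (log2 fold change 1.75 in the latter). In the colon Il33 did not pass in any comparison with edgeR on all libraries: KO against WT gave -1.79 ± 0.80 (SE), adjusted p = 0.17 at day 7 and -1.60 ± 0.78 (SE), adjusted p = 0.3 at day 13, and -1.38 ± 0.45 (SE), adjusted p = 0.082 over the 3 colon conditions. The last passed with DESeq2 (0.018), without WT day 13 replicate 2 (0.033) and without WT day 7 replicate 3 (0.033). The change from untreated WT colon to WT day 13 was 1.13 ± 0.77 (SE), adjusted p = 0.42, and without WT day 13 replicate 3 it turned to -0.17.

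The receptor antagonist Il1rn was the most even member among the inhibitors. In the colon the WT libraries held 139, 96.6 and 105 CPM untreated, 124, 218 and 140.1 CPM at day 7 and 193, 139 and 174 CPM at day 13. The KO libraries held 105, 103 and 44.1, 75.9, 126 and 156 and 126, 104 and 119 CPM at the same stages. KO libraries were below all WT libraries at day 13, and the lowest value of the series was that of untreated KO replicate 3. Tumours held 158, 147 and 112 CPM in WT and 65.0, 160.4 and 152 CPM in KO mice. Its log2 fold changes ran from -0.52 to 0.58 over the 13 comparisons, and 0 of them passed.

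With Il1rn in a narrow range and Il1b in a wide one, the balance between antagonist and cytokine spanned a wide range. Within each library, Il1rn exceeded Il1b in TPM by 134 to 392 times in untreated WT colon and by 55.3 to 68.5 times in untreated KO colon. The ratio was 3.04 to 11.5 in WT and 27.8 to 48.2 in KO colon at day 7, and 1.18 to 17.1 in WT and 67.5 to 199 in KO colon at day 13. WT and KO libraries did not overlap in this ratio at any of the 3 colon stages, with KO lower in untreated colon and higher at day 7 and day 13. The level of Il1b alone did not overlap at day 7 or day 13 either. Levels of single genes did not overlap for 17.9% of all genes in untreated colon, 26.1% at day 7 and 23.8% at day 13. In tumours the ratio was close to even, at 0.525 to 1.74 in WT and 0.791 to 1.85 in KO mice, and the genotypes overlapped. These ratios are descriptions of 3 libraries a group, with few Il1b counts behind the untreated values.

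**Figure D2:**
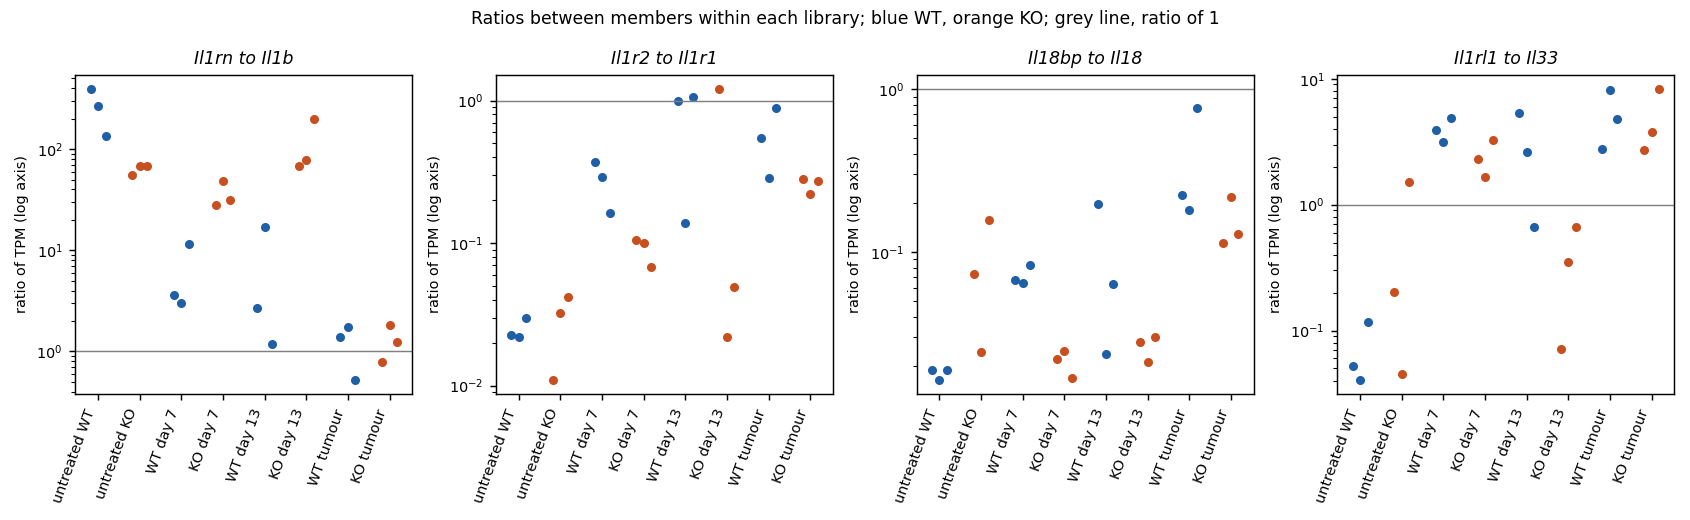
Ratio of TPM between pairs of the genes within each library, on log axes (points, 3 libraries a group; WT blue, KO orange; grey line at a ratio of 1). Il1rn to Il1b runs from 392 in untreated WT colon to 0.525 in a WT tumour, and Il18bp stays below Il18 in all 24 libraries.

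Il1r2, the decoy receptor carried by neutrophils and monocytes, was near the limit of counting in untreated colon, with 2, 2 and 3 counts in the WT libraries (0.0867, 0.0791 and 0.133 CPM) and 1, 2 and 7 counts in the KO libraries (0.0404, 0.0748 and 0.280 CPM). Fold changes against untreated colon rest on these few counts. WT colon held 2.64, 5.76 and 0.888 CPM at day 7 and 7.90, 0.753 and 10.3 CPM at day 13, and KO colon 0.577, 0.341 and 0.290 CPM and 4.07, 0.136 and 0.274 CPM. At day 7 every WT library was above every KO library, whereas at day 13 KO replicate 1, the squamous KO library, lay within the WT range. Tumours held 7.49, 5.28 and 9.95 CPM in WT and 5.20, 3.25 and 4.38 CPM in KO mice. Il1r2 rose in WT colon at day 7 (4.82 ± 1.33 (SE), adjusted p = 0.024) and day 13 (5.89 ± 1.34 (SE), adjusted p = 0.027), in WT tumours (6.18 ± 1.23 (SE), adjusted p = 4.5e-04) and in KO tumours (4.97 ± 1.16 (SE), adjusted p = 0.0017). Both colon calls were lost without any 1 of the untreated WT libraries (adjusted p of 0.067 to 0.09 at day 7 and 0.094 to 0.12 at day 13). The day 7 call was also lost without WT day 7 replicate 2 (log2 fold change 4.04, adjusted p = 0.072), and the day 13 call without WT day 13 replicate 1 (0.09) or replicate 3 (0.0581). KO against WT gave -2.88 ± 1.14 (SE), adjusted p = 0.13 at day 7 and -2.08 ± 1.03 (SE), adjusted p = 0.3 at day 13, neither past the threshold. In KO colon the change to day 7 was 1.58 ± 1.35 (SE), adjusted p = 0.5 and that to day 13 was 3.45 ± 1.27 (SE), adjusted p = 0.52.

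Il18bp, the soluble inhibitor of IL-18 that interferon induces, was 3.99, 3.99 and 4.76 CPM in untreated WT and 13.8, 5.31 and 12.3 CPM in untreated KO colon. It reached 13.8, 14.1 and 30.1 CPM in WT colon at day 7 and 31.9, 6.94 and 9.38 CPM at day 13, against 6.97, 7.15 and 6.19 and 6.98, 6.86 and 9.82 CPM in KO colon. The KO libraries were therefore above the WT libraries in untreated colon, below them at day 7, and overlapping at day 13. Tumours held 18.1, 9.33 and 40.1 CPM in WT and 8.28, 15.4 and 9.37 CPM in KO mice, also overlapping. In WT mice Il18bp rose at day 7 (2.13 ± 0.51 (SE), adjusted p = 0.012), at day 13 (1.89 ± 0.50 (SE), adjusted p = 0.0478) and in tumours (2.41 ± 0.56 (SE), adjusted p = 0.0017), and in KO tumours its change was 0.07. The day 7 rise no longer passed without untreated WT replicate 1 (0.0523), and the rise in WT tumours was 1.69 without WT tumour replicate 3. The day 13 rise was lost without WT day 13 replicate 1 (log2 fold change 0.93, adjusted p = 0.3) and without any 1 of the untreated WT libraries (0.12 to 0.16). KO against WT gave 1.28 ± 0.50 (SE), adjusted p = 0.74 in untreated colon, -1.48 ± 0.49 (SE), adjusted p = 0.086 at day 7, -1.01 ± 0.49 (SE), adjusted p = 0.29 at day 13 and -1.04 ± 0.55 (SE), adjusted p = 0.94 in tumours, and none of these passed. The ratio of Il18bp to Il18 in TPM was 0.0164 to 0.0188 in untreated WT colon, 0.0640 to 0.0834 in WT and 0.0168 to 0.0247 in KO colon at day 7, 0.180 to 0.768 in WT tumours and 0.113 to 0.216 in KO tumours.

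Il1r1, the signalling receptor for both forms of IL-1, lay at 20.2, 18.5 and 22.8 CPM in untreated WT and 19.5, 18.7 and 30.6 CPM in untreated KO colon. Under DSS the WT libraries held 26.5, 78.5 and 19.8 CPM at day 7 and 30.8, 24.04 and 41.5 CPM at day 13, and the KO libraries 21.6, 18.01 and 19.1 and 12.9, 22.4 and 21.2 CPM. The high WT day 7 value was that of replicate 2, the library rich in smooth muscle, which also had the highest fibroblast and endothelial marker sums of its group. At day 13 the KO libraries lay below the WT libraries. Tumours held 53.6, 76.2 and 48.4 CPM in WT and 78.9, 63.1 and 63.8 CPM in KO mice. Il1r1 rose in WT tumours (1.53 ± 0.38 (SE), adjusted p = 0.0025) and KO tumours (1.58 ± 0.38 (SE), adjusted p = 0.002), close to 2.90-fold and 2.99-fold. In the colon KO against WT was -1.04 ± 0.40 (SE), adjusted p = 0.12 at day 7, which did not pass, and passed without WT day 7 replicate 3 (0.031). Il1r2 to Il1r1 in TPM was 0.0220 to 0.0299 in untreated WT colon, 0.139 to 1.05 in WT and 0.0220 to 1.20 in KO colon at day 13, and 0.286 to 0.884 in WT and 0.221 to 0.280 in KO tumours.

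Il1rap, the accessory chain that the receptors for IL-1 and IL-33 share, was the steadiest gene. Its WT levels were 15.7, 11.9 and 11.8 CPM untreated, 8.38, 13.1 and 9.55 CPM at day 7, 8.21, 9.87 and 14.2 CPM at day 13 and 11.7, 9.33 and 7.43 CPM in tumours. The KO levels were 11.2, 10.9 and 9.94, 9.33, 12.8 and 10.9, 7.18, 11.4 and 8.96 and 11.9, 7.31 and 7.08 CPM in the same order. Over all 24 libraries it thus stayed between 7.08 and 15.7 CPM, and its log2 fold changes ran from -0.47 to 0.45 with 0 of 13 comparisons passed.

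Il1rl1, the receptor for IL-33, had the widest range of the receptors. It lay at 0.780, 0.356 and 0.756 CPM in untreated WT and 1.01, 0.561 and 5.81 CPM in untreated KO colon, where the high library was again KO replicate 3. At day 7 it was 34.7, 93.2 and 16.4 CPM in WT and 9.72, 6.73 and 10 CPM in KO colon, and at day 13 67.2, 14.3 and 32.8 CPM in WT and 1.02, 2.36 and 2.03 CPM in KO colon. WT libraries were above KO libraries at both times without overlap. The KO libraries were above untreated KO at day 7 and back in its range at day 13. Tumours held 122, 197 and 398 CPM in WT and 143, 98.5 and 366 CPM in KO mice, above every colon library. Against untreated colon alone, 60.1% of all genes in WT and 59.1% in KO mice did not overlap either. The rise in WT colon was 6.19 ± 0.95 (SE), adjusted p = 0.0016 at day 7 and 5.88 ± 0.94 (SE), adjusted p = 0.0077 at day 13, and that in tumours 8.57 ± 1.05 (SE), adjusted p = 4.7e-06 in WT and 6.37 ± 0.92 (SE), adjusted p = 2.6e-05 in KO mice. In KO colon the change to day 7 was 1.85 ± 0.78 (SE), adjusted p = 0.14, and without untreated KO replicate 3 it was 3.49 and passed (0.011). KO colon held less Il1rl1 than WT colon at day 13, by 20.7-fold (-4.37 ± 0.85 (SE), adjusted p = 0.018). The day 7 difference was -2.40 ± 0.76 (SE), adjusted p = 0.078, and it passed without WT day 7 replicate 3 (0.033). In untreated colon KO against WT was 1.93 ± 0.88 (SE), adjusted p = 0.76. Its rises in WT colon still passed, at 5.29 without WT day 7 replicate 2 and at 5.20 without WT day 13 replicate 1. In KO tumours the rise was 8.01 without untreated KO replicate 3 and 5.62 without KO tumour replicate 3. The day 13 call between KO and WT was lost without WT replicate 1 (log2 fold change -3.69, adjusted p = 0.075) and without KO replicate 1 (0.1), 2 (0.069) or 3 (0.089). Il1rl1 to Il33 in TPM went from 0.0406 to 0.117 in untreated WT colon to 3.16 to 4.88 at day 7 and 0.668 to 5.37 at day 13. In KO colon it was 1.67 to 3.28 at day 7 and 0.0708 to 0.662 at day 13, and in tumours 2.76 to 8.10 in WT and 2.703 to 8.28 in KO mice.

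Counted over the members, KO against WT gave 0 of 10 past the threshold in untreated colon, where 0.011% of 18102 genes tested passed, and 0 of 10 at day 7, where 0.00552% passed. At an unadjusted p under 0.05 there were 2 members in untreated colon, beside 6.53% of all genes, and 7 at day 7, beside 27.0%. DESeq2 called 0 and 5 members, with 64 and 2477 genes in all. The median log2 fold change of the members was -1.64 at day 7, beside 0.05 over all genes tested, and 8 of 10 were below 0. At day 13, 3 of 10 members passed, all lower in KO, beside 2.51% of all genes. The median of the members was -1.303 and that of all genes -0.02, and Il18 was the only member above 0. The count at day 13 was 0 with only the groups compared in the fit, with Y-linked expression as a covariate, or without the 2 libraries rich in squamous markers. Over the mean of the 3 colon conditions, 2 of 10 passed, Il1b (-2.84 ± 0.53 (SE), adjusted p = 0.014) and Il1a (-2.28 ± 0.60 (SE), adjusted p = 0.042), both lower in KO, beside 4.84% of all genes. Il1rl1 missed it there (-1.61 ± 0.47 (SE), adjusted p = 0.0584), and passed without untreated KO replicate 3 (0.015), WT day 7 replicate 3 (0.026) or WT day 13 replicate 2 (0.028). Il1r2 was at -1.53 ± 0.77 (SE), adjusted p = 0.23. Il1b lost this call without untreated WT replicate 3 (0.0509), and Il1a lost it in 15 of the 18 fits that left out 1 colon library.

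**Figure D3:**
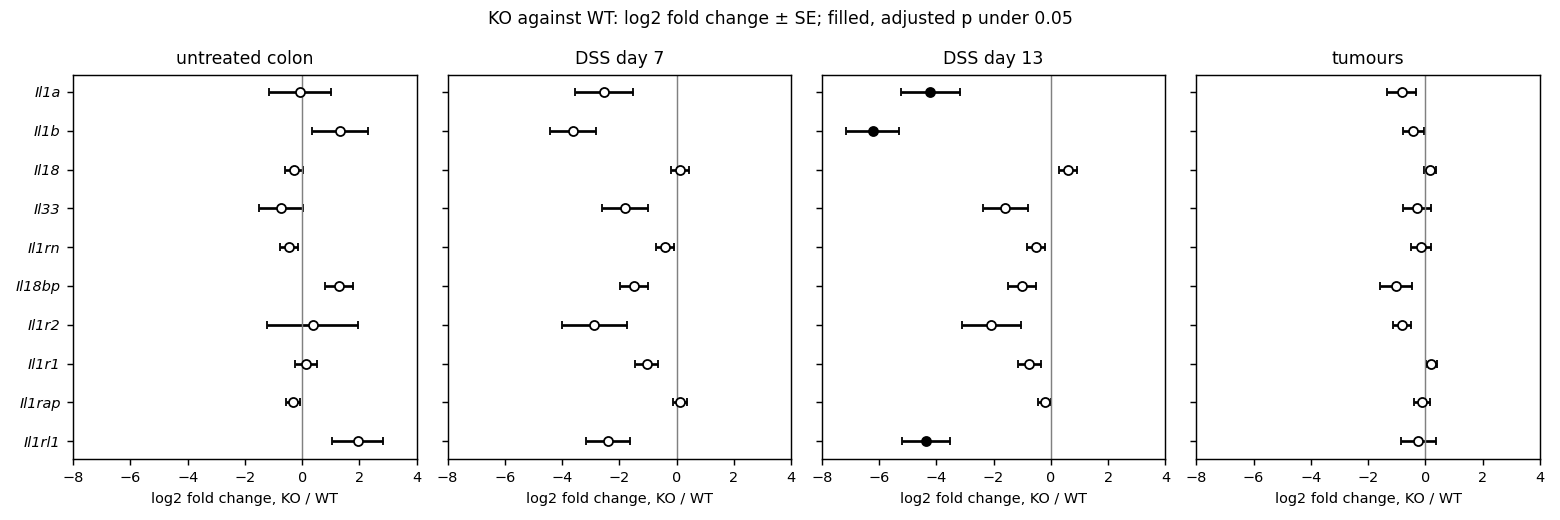
Log2 fold change of KO against WT with its SE for the 10 genes in untreated colon, at day 7, at day 13 and in tumours (filled points passed an adjusted p of 0.05). Il1b, Il1rl1 and Il1a passed at day 13, and in tumours all 10 genes lie between -1.04 and 0.21.

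The time course under DSS was compared within each genotype. In WT colon, 4 of 10 members passed at day 7 against untreated colon, all higher (Il1b, Il1rl1, Il18bp and Il1r2), where 16.3% of genes tested passed. At day 13, 5 of 10 passed, all higher (those 4 and Il1a), where 4.24% of genes passed. Among the colon libraries 4 carry an Illumina sample number that another library also has: replicate 2 of both untreated groups, replicate 2 of WT at day 7, and replicate 3 of KO at day 7. Without these 4 libraries, 2 members passed in WT colon at day 7 and 0 at day 13. In KO colon 0 of 10 passed at day 7, where 12.6% of genes did, and 0 of 10 at day 13, where 0.0276% did. The untreated KO libraries were male and the KO day 13 libraries were not, so this day 13 comparison also carries sex. In KO colon 2 members had an unadjusted p under 0.05 at each time, beside 26.8% of all genes at day 7 and 7.62% at day 13. DESeq2 called 1 member in KO colon at day 7, Il18, and 0 at day 13. At day 7 the number of all genes called was 2949 in WT and 2288 in KO colon, while 4 members passed in WT and 0 in KO colon. Among 10 genes, 0 calls is close to a share of 12.6%, so these counts alone show no difference between the genotypes. The median log2 change of the members at day 7 was 1.54 in WT and 0.43 in KO colon, beside 0.03 and -0.04 over all genes. The difference between the genotypes in the change was tested itself. For the change from untreated to day 7, 0 of 10 members passed, where 0.0% of all genes did. An unadjusted p under 0.05 was found for 3 members, beside 13.7% of all genes. DESeq2 called 3 members there: Il1b (0.0027), Il1rl1 (0.0086) and Il18bp (0.012). The edgeR values were -4.93 ± 1.25 (SE), adjusted p = 0.19 for Il1b, -4.33 ± 1.16 (SE), adjusted p = 0.19 for Il1rl1 and -2.76 ± 0.70 (SE), adjusted p = 0.19 for Il18bp. Il1a (-2.46 ± 1.49 (SE), adjusted p = 0.47), Il1r1 (-1.17 ± 0.56 (SE), adjusted p = 0.37), Il1r2 (-3.24 ± 1.98 (SE), adjusted p = 0.47) and Il33 (-1.05 ± 1.10 (SE), adjusted p = 0.7) also had negative values, which did not pass.

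For the change from untreated to day 13, 0 of 10 passed, where 0.011% of all genes did. An unadjusted p under 0.05 was found for 4 members, beside 13.5% of all genes. Il1b (-7.55 ± 1.31 (SE), adjusted p = 0.073) and Il1rl1 (-6.30 ± 1.21 (SE), adjusted p = 0.073) came closest, followed by Il18bp (-2.29 ± 0.69 (SE), adjusted p = 0.17), Il1a (-4.13 ± 1.48 (SE), adjusted p = 0.25) and Il1r2 (-2.45 ± 1.92 (SE), adjusted p = 0.62). DESeq2 called Il1b (2.9e-08), Il1rl1 (5.7e-06) and Il18bp (0.036). WT day 13 replicate 2, the WT library with the least Il1b, Il1a, Il1r2 and Il1rl1, bore on this test: without it Il1b (0.0033), Il1rl1 (0.012), Il1a (0.035) and Il18bp (0.0498) passed in edgeR. Without untreated KO replicate 2, Il1b (0.04) and Il1rl1 (0.039) passed. Comparisons within a genotype share their untreated libraries. Among the WT day 13 calls, that of Il1b held on leaving out each library in turn, and that of Il1rl1 was lost at an adjusted p of 0.05002 without untreated WT replicate 1. With only the groups compared in the fit, Il1b stood at 0.0581.

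In tumours, 0 of 10 members passed between KO and WT, where 0.0% of the 17245 genes tested passed. In that fit 654 genes, or 3.79%, had an unadjusted p under 0.05, Il1r2 among them, and DESeq2 called 0 members too. The median of the members was -0.27, beside -0.01 over all genes. Against untreated colon, 8 of 10 members passed in WT tumours, 7 higher and Il18 lower, and 7 of 10 in KO tumours, 6 higher and Il18 lower, where 48.8% and 49.9% of 19056 genes passed. Tumours did not overlap untreated colon for 9 of 10 members in WT and 7 in KO mice, beside 60.1% and 59.1% of all genes. Il18bp passed in WT and not in KO tumours, and the difference of its changes was not tested. In both genotypes Il1rl1 and Il1b rose most among the 10 members. The rise of Il1r2 was 6.18 ± 1.23 in WT and 4.97 ± 1.16 in KO tumours (6.08 in KO without untreated KO replicate 3), and that of Il1a was 5.97 ± 1.05 (SE), adjusted p = 1.5e-04 in WT (5.26 without WT tumour replicate 3) and 5.21 ± 1.02 (SE), adjusted p = 4.1e-04 in KO tumours. For Il1b the rise was 8.18 ± 0.96 (SE), adjusted p = 3.2e-06 in WT and 6.42 ± 0.86 (SE), adjusted p = 1.3e-05 in KO tumours. Tumour and colon differ in tissue makeup, as the smooth muscle markers show, and its part in these changes was not tested.

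Neutrophils are known to carry Il1b and Il1r2, and 8 neutrophil markers were summed. The sum of all 8 was 108.6 to 169 CPM in untreated WT and 6.89 to 133 CPM in untreated KO colon, 302 to 479.8 CPM in WT and 139.8 to 157 CPM in KO colon at day 7, 223 to 559 CPM in WT and 184 to 263 CPM in KO colon at day 13, and 275 to 377 CPM in WT and 189.5 to 337 CPM in KO tumours. WT and KO libraries did not overlap at day 7 and did overlap at day 13. Ly6g made up most of this sum in untreated colon and followed another course, at 106 to 168 CPM in untreated WT colon, 181 to 192 CPM in WT and 182 to 252 CPM in KO colon at day 13, and 50.6 to 71.1 CPM in WT tumours. The other 7 markers, a choice made after the values were seen, summed to 0.949 to 2.18 CPM in untreated WT and 0.935 to 2.24 CPM in untreated KO colon, where Cxcr2 was at 0 in all 6 libraries. They reached 16.8 to 188 CPM in WT and 1.66 to 3.70 CPM in KO colon at day 7, 38.4 to 367 CPM in WT and 1.37 to 11.2 CPM in KO colon at day 13, and 204 to 327 CPM in WT and 141 to 323 CPM in KO tumours. Without Ly6g the WT and KO libraries did not overlap at day 7 or day 13. Under DSS, 0 of the 8 markers was at 0 in all 3 libraries of a group.

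Sums for other cell types at day 13 were compared by their ranges, with no test. Monocyte and macrophage markers (244 to 519.7 CPM in WT and 119 to 177 CPM in KO colon) and fibroblast markers (958 to 2532 and 369 to 653 CPM) were higher in WT colon without overlap. T cell markers (5.39 to 17.9 and 4.12 to 6.92 CPM), endothelial markers (55.1 to 164 and 38.4 to 64.0 CPM) and smooth muscle markers (2058 to 3761 and 3467 to 5867 CPM) overlapped. The 7 mast cell markers also overlapped, at 22.4 to 40.9 CPM in WT and 18.9 to 37.6 CPM in KO colon, and their sum in WT tumours (33.4 to 58.4 CPM) lay within that in untreated WT colon (23.6 to 65.1 CPM). Most of that sum in the colon was Kit, which other cells of the gut wall carry. Without Kit, also a choice made after the values were seen, the mast cell sum was 1.25 to 5.61 CPM in WT and 0.500 to 0.548 CPM in KO colon at day 13, 0.356 to 0.593 CPM in untreated WT colon, and 20.8 to 47.9 CPM in WT and 23.7 to 70.4 CPM in KO tumours. The part of cell numbers in the differences in Il1b, Il1r2, Il1a and Il1rl1 was not tested.

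**Figure D4:**
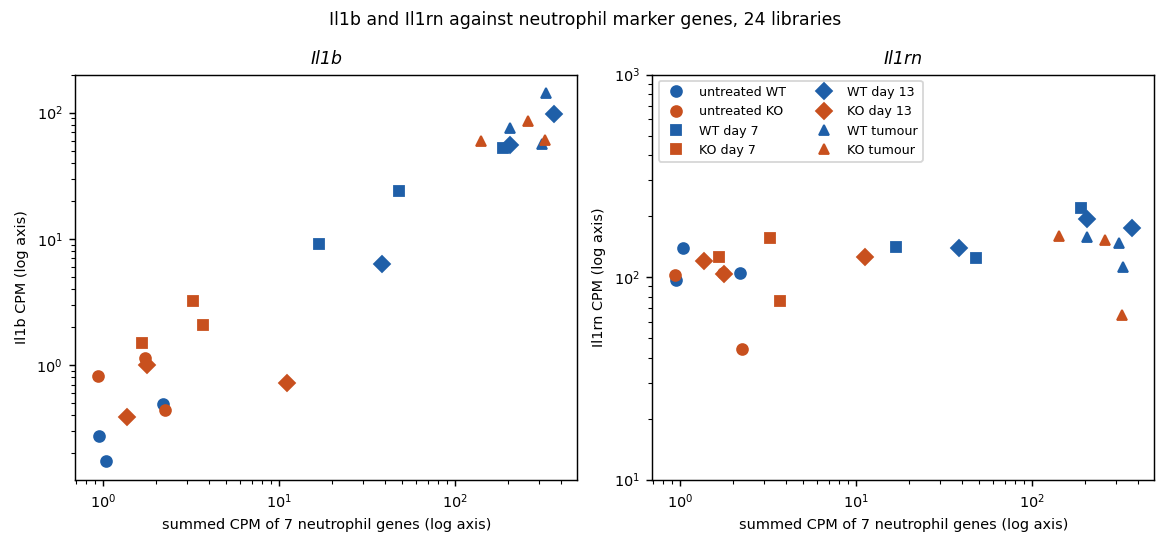
Il1b (left) and Il1rn (right) against the summed level of 7 neutrophil markers (without Ly6g) in the 24 libraries, both in CPM on log axes. Ly6g, which followed another course, was left out after the values were seen. With all 8 markers, WT and KO colon overlapped at day 13. The Il1b points climb with the markers from untreated colon to tumours, while Il1rn stays between 44.1 and 218 CPM.

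Genes whose levels were most like each member over the 24 libraries were listed by Pearson's r of log2(CPM + 1), among 12718 genes with a mean of at least 2 CPM. The libraries fall into 8 groups with shared tissue and depth, so these values describe the pattern over groups. Closest to Il1b were Csf3r (r = 0.983), Slc15a3 (r = 0.982) and Tnfaip2 (r = 0.978). Csf3r is the receptor for the growth factor of neutrophils. For Il1r2 they were S100a9 (r = 0.949), S100a8 (r = 0.946) and Clec4e (r = 0.939), of which S100a8 and S100a9 encode the main cytosolic proteins of neutrophils. For Il1a they were Adam8 (r = 0.980), Cxcl3 (r = 0.976) and Osm (r = 0.973). For Il1rl1 they were Arid5a (r = 0.974), Mmp10 (r = 0.973) and Plaur (r = 0.971). The closest to Il18 were Cpn2 (r = 0.976), Ckmt1 (r = 0.952) and Ccdc93 (r = 0.949), and to Il18bp Psmb8 (r = 0.924), Tap1 (r = 0.912) and Socs1 (r = 0.906). Psmb8 and Tap1 belong to the machinery that loads peptides onto MHC class I and Socs1 restrains interferon signalling. For Il33 they were Slc39a6 (r = 0.948), Parp8 (r = 0.943) and Thsd1 (r = 0.936), and for Il1r1 Tmem176a (r = 0.954), Gramd1a (r = 0.953) and Chsy1 (r = 0.951). The steady genes had weaker matches: Capn2 (r = 0.826), Rab32 (r = 0.822) and Nt5c1a (r = 0.800) for Il1rn, and Fam198b (r = 0.857), Lama2 (r = 0.753) and Efemp1 (r = 0.748) for Il1rap. Between members, r was highest for Il1b and Il1rl1 (0.95), Il1a and Il1b (0.94), Il1a and Il1r2 (0.92) and Il1b and Il1r2 (0.91), and lowest for Il18 with Il1r1 (-0.79), with Il33 (-0.77) and with Il1a (-0.76).

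The rest of the pathway was read through 7 lists of 56 genes, of which 46 could be tested in the colon. The lists, like the members, were chosen with earlier results of these data known. Their counts beside the share of all genes are therefore descriptions and not a test. At day 13, 12 of the 46 were lower in KO than in WT colon and 0 higher, beside the 2.51% of all genes. Of 10 genes that IL-1 is known to induce, 7 were lower, with a list median of -4.04, and the 4 with the smallest p were Ccl2 (-5.07 ± 0.80), Cxcl2 (-6.93 ± 1.295), Lcn2 (-3.80 ± 0.73) and Il6 (-4.84 ± 1.01). Ccl2 attracts monocytes, Cxcl2 attracts neutrophils, Lcn2 withholds iron from bacteria and Il6 is a cytokine of the acute phase. Ccl2 lay at 2.97 to 17.2 CPM in WT and 0.273 to 0.291 CPM in KO colon, and Cxcl2 at 2.55 to 60.7 and 0.0782 to 0.485 CPM. Also lower were Nlrp3 (-5.01 ± 0.90), the sensor of an inflammasome and 1 of 8 genes of processing and release, Il18rap (-2.97 ± 0.62), a chain of the IL-18 receptor and 1 of 4 other receptors tested, Gata3 (-2.78 ± 0.69) of 2 genes linked to IL-33 and IL-18, and 2 of 4 feedback genes, Zc3h12a (-1.44 ± 0.35), which degrades cytokine messages, and Nfkbiz (-1.21 ± 0.30), a nuclear partner of NF-kappaB. Adjusted p for these 9 genes ran from 0.011 to 0.0475. The 16 genes of signal transduction, from Myd88 to Rela, had a median of -0.10 and 0 calls. The count of list genes called was 0 with only the day 13 groups in the fit, with Y-linked expression as a covariate, and without WT replicate 1, KO replicate 1, KO replicate 3 or the 2 libraries rich in squamous markers. It was 1 without WT replicate 3 or KO replicate 2, and without WT replicate 2 it was 18 lower and 1 higher.

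Between untreated and day 7 WT colon, 20 of the 46 list genes rose and 3 fell, beside the 16.3% of all genes. The number that rose was 9 without untreated WT replicate 1, 12 without untreated WT replicate 3, 13 without untreated WT replicate 2 or WT day 7 replicate 2, 7 without the 4 libraries with repeated sample numbers, 11 with only the groups compared and 13 with Y-linked expression as a covariate. All 10 IL-1-induced genes tested rose, led by Cxcl1 (5.68 ± 0.94), Ccl2 (4.39 ± 0.77), Nos2 (6.06 ± 1.11) and Cxcl2 (8.13 ± 1.57), as did the feedback genes Zc3h12a (2.32 ± 0.36), Nfkbiz (1.88 ± 0.30) and Nfkbia (1.06 ± 0.31), and Casp4 (1.51 ± 0.38), Nlrp3 (2.68 ± 0.82) and Gsdmd (0.83 ± 0.26) of processing and release. Gsdmd encodes gasdermin D, the pore through which IL-1 beta leaves the cell. In KO colon at day 7, 2 list genes rose, Cxcl1 (3.02 ± 0.86) and Areg (1.38 ± 0.41), an epithelial growth factor that also rose in WT colon (2.47 ± 0.42), and Irak2 fell (-0.42 ± 0.12), beside the 12.6% of all genes. Cxcl1 was 3.18 to 26.0 CPM in WT and 1.25 to 6.91 CPM in KO colon at day 7. At day 13, 16 of 46 rose in WT colon, 9 of them IL-1-induced genes, beside the 4.24% of all genes. That count was 1 without untreated WT replicate 1, 4 without untreated WT replicate 2, 8 without untreated WT replicate 3, 7 without WT day 13 replicate 1, 2 without the 4 libraries, 4 with only the groups compared, and 10 without the 2 libraries rich in squamous markers. In KO colon at day 13, 0 of 46 passed, where 0.0276% of all genes did. Casp1 and Pycard, which form inflammasomes, did not pass in any colon comparison, and Casp1 lay at 100.2 to 156 CPM in WT and 152 to 169.6 CPM in KO colon at day 13.

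In tumours against untreated colon, 30 of 49 list genes tested rose and 2 fell in WT mice, and 23 rose and 8 fell in KO mice, beside 48.8% and 49.9% of all genes. All 11 IL-1-induced genes rose in both genotypes, led in both by Lcn2 (7.24 ± 0.89 in WT and 7.45 ± 0.90 in KO mice). Nlrp3 rose in both (4.41 ± 0.79 and 3.98 ± 0.78), whereas Nlrp6 (-1.80 ± 0.58 and -3.19 ± 0.61) and Pycard (-1.20 ± 0.41 and -1.71 ± 0.42) fell in both and Casp1 passed in KO tumours (-1.47 ± 0.28). Nlrp6 is the inflammasome sensor of intestinal epithelium and Pycard the adaptor that joins sensors to caspase-1. Of the related IL-36 ligands, Il1f9 (IL-36 gamma) was at 0 counts in all 3 untreated WT libraries and at 4.35 to 9.26 CPM in WT tumours. Against 3 counts over the untreated group, its mean was at least 151-fold higher in WT tumours. In WT colon at day 13 the libraries ran from 0.335 to 18.2 CPM, and the highest was replicate 3, the one rich in squamous markers. In KO colon at day 13 it lay at 0 to 1.79 CPM. Il1f6 (IL-36 alpha) was at 0 in all 6 untreated libraries and at 0.312 to 0.384 CPM in WT tumours, at least 8.28-fold higher. Both passed in WT tumours, with adjusted p of 0.0018 and 0.041. In KO tumours 2 of the 3 other IL-1 family ligands tested also passed as higher. The mean of Il1f6 there was 0.317 CPM, at least 8.09-fold above untreated KO colon. Between KO and WT, 0 of 46 list genes passed in tumours and in untreated colon, with DESeq2 too, where 0.0% and 0.011% of all genes passed. At day 7 edgeR called 0 of 46, beside 0.00552% of all genes, whereas DESeq2 called 13 lower and 2 higher in KO colon, all 24 libraries in the fit gave 5 lower, and leaving out WT replicate 1 or 3 gave 4 lower, or 8 lower and 1 higher.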

How the data were processed

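RNA of 24 mouse tissue samples was sequenced, 3 in each of 8 groups set by the labelled genotype, treatment and day. Per the labels' protocols RNA was extracted with Trizol, and per the submitters' processing notes STAR 2.7.6a and RSEM 1.3.1 were used with GRCm38. Neither the annotation release nor the strand setting is given in the sources used here. Per the file headers the authors deposited RSEM's expected counts, TPM and effective lengths for 55487 genes. In an expected count a read that matches several genes is divided among them, and 26.0% to 28.3% of the nonzero values of a library were not whole. Symbols from GENCODE M21 were found for 55227 identifiers, and the other 260 held at most 0.0178% of a library's counts. Reads of overlapping genes on opposite strands cannot be told apart: exons of Il1rap share 4.86% of their bases with Gm20319, those of Il18bp 2.64% with Numa1 and those of Il1b 1.31% with Il1bos.

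Expected counts were rounded and tested with edgeR 4.0.16 in R 4.3.3 (quasi-likelihood F test, TMM normalization, filter with minimum count 10 and minimum total 15, robust estimation), with Benjamini-Hochberg adjustment over all genes of a comparison and a threshold of 0.05. Colon comparisons used 1 fit of 18 libraries (18102 genes), tumours between genotypes 6 libraries (17245 genes), and tumours against colon all 24 (19056 genes). Only the colon fit was run on simulated counts, for KO against WT at day 13 and with the same spread set for all genes. The tumour fit and that of all 24 libraries were not. The SE of a log2 fold change is its size divided by the root of F. CPM uses totals scaled by the TMM factors. Deposited TPM served to rank genes and to form ratios within a library. Fold changes are given for members that passed or changed by at least 1 on the log2 scale, and at most 4 genes of a pathway list with the smallest p. Alternatives were DESeq2 1.42.0, RLE size factors, no filter, a filter of 1 CPM in 6 libraries (3 in the tumour fit), other sets of libraries, Y-linked expression as a covariate, and libraries left out. Replicate numbers follow the order of deposit and pair nothing. Members and lists were chosen with earlier results of these data known.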

Additional observations from a re-analysis of the deposited data

How the results depend on the processing

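Each of 64 member fold changes was recomputed under each alternative, 1011 values in all: 886 kept their direction and side of the threshold, 88 kept the direction and lost the call, 33 gained it, and 4 turned the direction, with no other turns. All 4 are of Il33: its change from untreated WT colon to WT day 13 was -0.17 without WT day 13 replicate 3 and -0.17 without the 2 libraries rich in squamous markers, and its difference between genotypes in the change to day 7 was 0.41 without the 4 libraries whose sample numbers repeat and 0.10 without WT day 7 replicate 2. Over all fits without 1 library these changes ran from -0.17 to 1.59 and from -1.49 to 0.10. The 32 group ratios differed by less than their SD when computed from expected counts per effective length. The counts of members called moved as follows. KO against WT at day 7 (0 members) gave 5 with DESeq2 and 1 with all 24 libraries in the fit. KO against WT at day 13 (3 members) gave 0 with the Y-linked covariate, 0 with only the groups compared and 0 without the 2 squamous-marker libraries. The mean over the 3 colon conditions (2 members) gave 1 with no filter, 1 with the stricter filter, 1 with the Y-linked covariate, 4 with DESeq2, 0 without the 4 libraries and 0 without the 2 squamous-marker libraries. WT day 7 against untreated (4 members) gave 2 with the Y-linked covariate and 2 without the 4 libraries. WT day 13 against untreated (5 members) gave 3 with no filter, 3 with the stricter filter, 3 without the 2 squamous-marker libraries, 2 with the Y-linked covariate, 1 with only the groups compared and 0 without the 4 libraries. DESeq2 gave 1 for KO day 7 against untreated and 3 for each difference between genotypes in the change (to day 7 and to day 13), and all 24 libraries in the fit gave 2 for the latter. Leaving out 1 library at a time gave 0 to 3 members for KO against WT at day 7, 0 to 3 at day 13, 0 to 5 for the mean, 2 to 5 for WT day 7, 0 to 1 for KO day 7, 1 to 5 for WT day 13, 0 to 4 for the difference in the change to day 13, and 7 to 8 for tumours of either genotype, with 0 in the other comparisons. Fits with libraries left out hold fewer samples, and the stricter filter tests fewer genes; otherwise the cause was not tested.

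Over all genes, KO against WT at day 13 called 455 genes, 286 with no filter, 1322 with DESeq2, 14 with only the groups compared, 4 without the 2 squamous-marker libraries, 1 with the Y-linked covariate, and 1 to 1380 on leaving out 1 library. DESeq2 called 2477 genes at day 7 (edgeR 1) and 2477 for the mean (edgeR 877), 1935 for WT day 13 (edgeR 767), 116 for KO day 13 (edgeR 5), and 349 and 568 for the differences in the change (edgeR 0 and 2), and 64 in untreated colon and 18 in tumours between genotypes (edgeR 2 and 0). Without the 4 libraries the calls were 2 for the mean, 18 for WT day 13 and 949 for KO day 7 (2288 with them), and with only the groups compared 931 for WT day 7 (2949). With few counts in untreated colon, changes of Il1r2, Il1a and Il1b from it are imprecise. No paired analysis was possible because the labels carry no replicate numbers.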
